A study of Rattus norvegicus with 34 samples.

Results

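The left ventricle (LV) of rats with a moderate myocardial infarction (M-MI) was compared with that of sham-operated rats on 12 of the 34 arrays of the series. All animals were male Wistar rats. In the infarcted rats the left coronary artery was ligated, sham rats went through the same operation with the suture left untied, and tissue was taken 2 months later. Rats were sorted into small (S-MI), moderate and large (L-MI) infarction after the operation from echocardiographic wall motion, and the labels describe the injury of the M-MI rats as compensated. The members of the comparison were all arrays labelled as M-MI heart (n = 6) and as sham heart (n = 6), each from a different rat and hybridised to a whole-transcript rat gene array. The sham tissue was the whole LV, whereas the M-MI tissue was the part of the LV outside the visible scar, so the infarct and the portion of the wall sampled cannot be told apart in this comparison. S-MI (n = 6) and L-MI (n = 5) arrays entered the same fit and are given only beside M-MI values.

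After an infarct the surviving, remote myocardium takes over the load of the lost muscle. The changes known from failing hearts include return of fetal genes and natriuretic peptides, deposition of collagen and matricellular proteins by activated fibroblasts, lower expression of fatty acid oxidation and ion channel genes, and entry of macrophages. Whether any of these is already present when the pump is still compensated is the question that the M-MI group addresses.

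Cardiomyocyte markers were looked at first. Of 15 cardiomyocyte markers 13 were measured, with 5 of their M-MI minus sham shifts above 0, 8 below and a median of -0.0094 on the log2 scale. On the first principal component of all LV arrays, sham 4 (-121) and sham 6 (-123) stood apart from the other sham arrays (-1.36 to 31.1) and from all M-MI arrays (16.9 to 51.4). They were not alone there, since S-MI 4 (-138) and S-MI 5 (-112) lay at the same end, and L-MI 4 (165) lay at the other. Gene shifts and list counts that moved most without sham 4 and sham 6 are given both ways below.

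No transcript separated M-MI from sham under the study's thresholds, a fold change of at least 1.3 with an adjusted p of at most 0.05 (limma across all LV arrays, Benjamini-Hochberg). The count was 0 of 29214 transcript clusters (0%), and the smallest adjusted p was 0.293. At an unadjusted p of at most 0.05 there were 2053 clusters (7.03%), of which 939 lay higher in M-MI (3.21%) and 1114 lower (3.81%). Of the 15310 clusters with the symbol of 1 gene, 1031 (6.73%) reached that unadjusted p, 442 higher (2.89%) and 589 lower (3.85%). Because no gene passed, no gene is described here as changed, and all shifts are M-MI minus sham differences of mean log2 signal.

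The shifts of the named clusters were narrow. Their median was -0.0093, their 5th to 95th percentile ran from -0.137 to 0.147, and the median size regardless of direction was 0.0537. Of the named clusters 89.1% lay within 1.1-fold of sham and 99.1% within 1.2-fold. At least 1.3-fold was reached by 11 named clusters upward and 12 downward, and at least 1.5-fold by 4 and 2. The same arrays gave L-MI minus sham shifts of which 69.9% lay within 1.1-fold, with 505 named clusters at least 1.3-fold higher and 240 lower. For S-MI minus sham, 90.3% lay within 1.1-fold, with 25 higher and 15 lower. These 3 differences share the sham arrays.

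**Figure D1:**
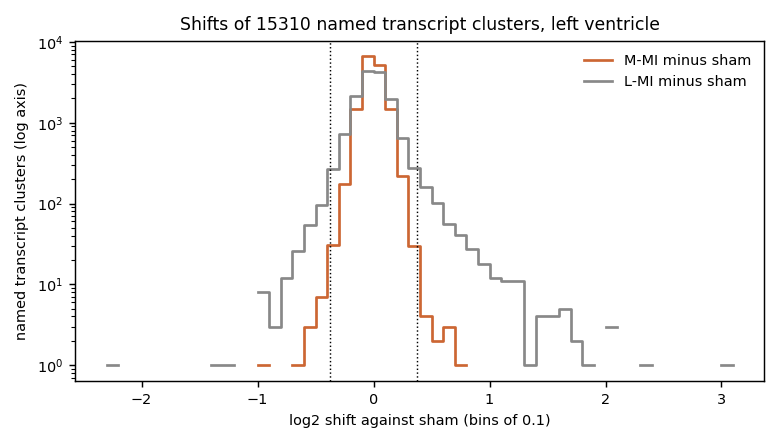
Number of named transcript clusters (vertical log axis) in each bin of 0.1 of the log2 shift against sham (horizontal axis), for M-MI and for L-MI, both set against the same 6 sham arrays; dotted lines mark 1.3-fold. M-MI holds 11 clusters at least 1.3-fold higher and 12 lower, while L-MI has 505 and 240.

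How large a shift could have been missed is given by the 95% confidence intervals of the fit, whose median half-width was 0.142 on the log2 scale. The whole interval lay within 1.3-fold of sham for 14376 named clusters (93.9%) and within 1.5-fold for 15153 (99%). Within 1.2-fold the count was 11513 (75.2%). Scatter within groups was alike, with a median SD of 0.106 over the sham arrays and 0.102 over the M-MI arrays, and the median SE of a shift was 0.0686.

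Direction depended on how bright a cluster was. Of the named clusters, 54.7% had a shift below 0. Among 4747 clusters with a mean log2 signal from 5 to 7, only 34.7% lay below 0 (median shift 0.036), whereas among 4850 clusters from 7 to 9 the share was 68.1% (median -0.031). Leaving out sham 4 and sham 6 moved these shares to 41.2% and 54.1% (medians 0.017 and -0.0068). Among the 3427 clusters above a signal of 9, 66.8% lay below 0 with all arrays and 62.6% without that pair (medians -0.023 and -0.018). Small one-sided shifts of gene lists, whether of bright or of dim transcripts, are given below and are to be read beside these shares.

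The largest positive shifts at the unadjusted p belonged to genes of various kinds. Fgf7, a fibroblast growth factor made by stromal cells (transcript cluster 10839434), ran from 5.64 through a median of 6.04 to 7.17 log2 units in sham and from 5.86 through 7.32 to 7.55 in M-MI. In 4 M-MI arrays it exceeded every sham array, and sham 5 alone reached 7.17. The shift was 0.79 (SE 0.32, adjusted p = 0.689), a 1.73-fold difference. Sphkap, an anchoring protein for protein kinase A that is abundant in heart, had sham values of 7.45, 8.28 and 8.78 (lowest, median, highest) and M-MI values of 8.09, 8.83 and 9.14. Its shift was 0.53 (SE 0.21, adjusted p = 0.689), with overlapping groups. H19, an imprinted non-coding RNA of fetal tissue, spanned 6.47 to 7.43 around a median of 7.29 in sham and 7.18 to 8.31 around 7.56 in M-MI, a shift of 0.45 (SE 0.22). The sham minimum of H19 came from sham 6, and the shift was 0.28 without sham 4 and sham 6.

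Fibronectin, Fn1, a matrix glycoprotein laid down early in repair, had the largest positive shift of the matrix genes. It lay at 8.31, 8.52 and 8.63 in sham (lowest, median, highest) and at 8.41, 8.76 and 9.61 in M-MI. The shift was 0.36 (SE 0.15, adjusted p = 0.691), and 0.22 without M-MI 4, the highest array at 9.61. L-MI arrays exceeded M-MI arrays by a further 1.198 (adjusted p = 4.81e-05), a difference that does not involve sham.

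Lyz2, lysozyme of macrophages and neutrophils, ranged from 10.07 to 10.43 (median 10.17) in sham and from 10.31 to 11.03 (median 10.46) in M-MI. The groups overlapped in a narrow stretch, and the shift was 0.35 (SE 0.13). Slamf9, a receptor of the signalling lymphocyte activation family, lay at 5.39 to 5.68 (median 5.50) in sham and 5.51 to 6.21 (median 5.82) in M-MI, a shift of 0.35 (SE 0.11). In L-MI both lay higher still, by 0.64 for Lyz2 (adjusted p = 0.00351) and by 0.38 for Slamf9 (adjusted p = 0.0372) over M-MI. Slpi, a secreted inhibitor of neutrophil proteases, ran from 7.58 to 8.05 (median 7.92) in sham and from 7.98 to 8.88 (median 8.08) in M-MI, a shift of 0.40 (SE 0.15). Klrc3, a lectin-like receptor of natural killer cells, shifted by 0.37 (SE 0.14) between 6.70 to 7.01 in sham and 6.82 to 7.70 in M-MI. RT1-M1-2, a class I histocompatibility gene, shifted by 0.36 with 4 M-MI arrays above all sham arrays. The RT1, Klr, odorant and vomeronasal receptor families hold near-identical copies, so probes of these genes may read several members. The other named genes of the upper tail were Ifi27l2b (0.38), an interferon-induced gene highest in M-MI 3 at 8.18 and at 0.19 without that array, and the chemosensory receptors Or1o1 and Tas2r120.

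Among the largest negative shifts at the unadjusted p were several receptors with low signal and a few genes of metabolism and nerve. Vom2r56, a vomeronasal receptor (transcript cluster 10901190), gave the smallest p of the comparison. It lay at 4.73, 4.92 and 5.64 in sham (lowest, median, highest) and at 4.05, 4.28 and 4.63 in M-MI, so that every M-MI array was below every sham array. The shift was -0.67 (SE 0.12, adjusted p = 0.293), and the two-sided exact permutation p of 0.00216 was the smallest that 6 arrays against 6 can give. Every gene whose groups do not overlap has this same permutation p, so it adds nothing to the separation itself. The adjusted p ran from 0.0743 to 0.812 over the alternative settings. The signal was near the dim end of the array, and whether the probes measure this receptor in the LV was not tested.

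Mid1ip1, a regulator of acetyl-CoA carboxylase in lipid synthesis, had a lowest value of 9.41 and a median of 9.65 in sham, and a median of 9.19 and a highest value of 9.69 in M-MI, a shift of -0.46 (SE 0.18, adjusted p = 0.689). The groups overlapped between 9.41 and 9.69. Kng1, the kininogen precursor of bradykinin, spread from 4.86 to 5.97 (median 5.41) in sham and from 4.75 to 5.24 (median 4.94) in M-MI, a shift of -0.46 (SE 0.15), or -0.27 without sham 4 and sham 6. Cdh19, a cadherin of Schwann cells, ranged from 5.68 to 6.95 in sham and from 5.65 to 6.22 in M-MI, a shift of -0.42 (SE 0.17), and Gfra3, the artemin receptor of nerve cells, shifted by -0.29 (SE 0.12). Polr3g, a subunit of RNA polymerase III, lay at 5.56 to 6.13 in sham and 5.39 to 5.68 in M-MI, a shift of -0.36 (SE 0.09) with 3 M-MI arrays below all sham arrays. Klra22, a killer cell lectin-like receptor, shifted by -0.50, with sham 6 the highest array at 4.03. Its shift was -0.29 without sham 6 and -0.16 without sham 4 and sham 6. The remaining genes of the lower tail were Ccdc7b (-0.51), Or7g23 (-0.41), Or2t47e, Eqtn (-0.37), Or6c35f (-0.36) and Boll (-0.36). Without sham 4 and sham 6 the shifts were -0.33 for Ccdc7b, -0.22 for Eqtn, -0.19 for Or6c35f and -0.16 for Boll.

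In 81 named clusters (0.529%) the 6 M-MI values did not overlap the 6 sham values, 24 of them higher (0.157%) and 57 lower (0.372%). Without sham 4 and sham 6 these counts became 74 and 107, fewer arrays leaving less room for overlap. Aqp6, a water and anion channel, had the smallest p of the higher group, at 6.27 to 6.55 in sham and 6.56 to 6.77 in M-MI, a shift of 0.25 (SE 0.06, adjusted p = 0.689). In L-MI it was lower than in M-MI by -0.54 (adjusted p = 1.33e-05), and the mean was 6.65 in M-MI, 6.49 in S-MI, 6.40 in sham and 6.11 in L-MI. Shc2, an adaptor of receptor tyrosine kinases, lay at 6.53 to 6.83 in sham and 6.83 to 6.98 in M-MI, a shift of 0.21. The others with the smallest p in this direction were Slc10a4 (0.21), Foxi2 (0.22), Slc7a8 (0.22), Calml4 (0.20), Zar1 (0.19, or 0.12 without sham 4 and sham 6) and Zdhhc25 (0.26). On the lower side, after Vom2r56, Elp5, a subunit of the elongator complex, lay at 8.52 to 8.72 in sham and 8.33 to 8.49 in M-MI, a shift of -0.19 (SE 0.05). Xrcc4, which joins broken DNA ends, lay at 7.26 to 7.58 in sham and 7.10 to 7.22 in M-MI, a shift of -0.24 (SE 0.07). The mitochondrial translation genes Rars2 (-0.21) and Mrps33 (-0.17) also separated, as did Fam118b (-0.16), Vom1r89 (-0.35) and Or5b116 (-0.25).

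**Figure D2:**
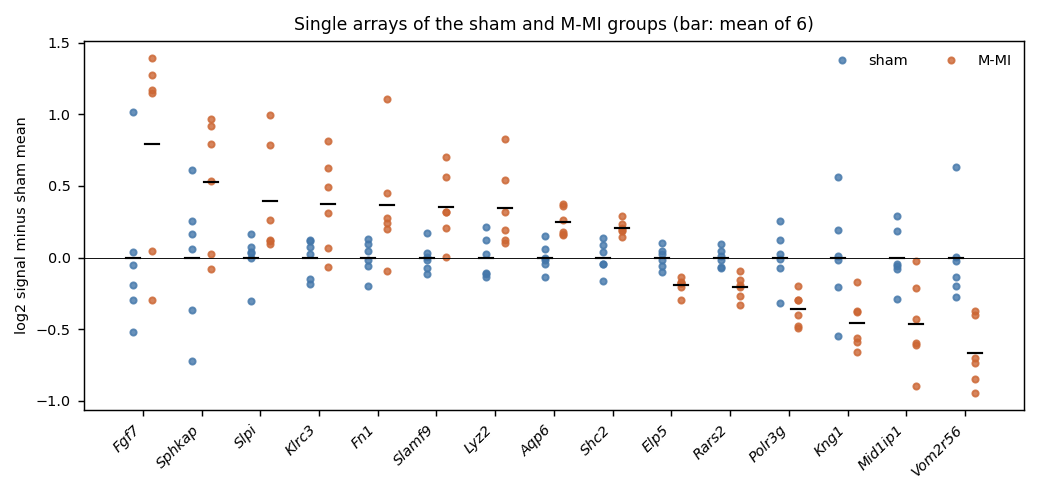
Single arrays of the sham and M-MI groups for genes with large or non-overlapping shifts, as log2 signal minus the sham mean of the gene (vertical axis); bars mark the mean of 6 arrays. Vom2r56 and Aqp6 separate the groups, while Fgf7 and Fn1 overlap, with sham 5 high in Fgf7 (7.17) and M-MI 4 high in Fn1 (9.61).

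Gene lists were then described by role. The 48 lists (31 by function or pathway, 17 by cell type) named 1008 genes, of which 891 were measured. At an unadjusted p of at most 0.05 there were 25 higher and 21 lower, 5.16% of those measured, against the 6.73% of all named clusters. For each list the counts above and below 0 are to be read against the 54.7% of named clusters below 0 and their median of -0.0093.

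Matrix genes leaned upward by little. Of 29 genes for fibrillar collagens and matrix structure, 21 lay above 0 and 8 below, 4 higher and 1 lower at the unadjusted p, with a median of 0.047. The mean over the list was -0.056 to 0.051 in the sham arrays and -0.052 to 0.26 in the M-MI arrays, where M-MI 5 (0.26) and M-MI 4 (0.11) were the highest. In the S-MI arrays it was 0.012 to 0.20, and the median S-MI minus sham shift was 0.063. Lox, which crosslinks collagen and elastin, lay at 6.33 to 6.65 (median 6.37) in sham and 6.58 to 6.96 (median 6.70) in M-MI, a shift of 0.30 (SE 0.10). Elastin itself, Eln, ran from 7.40 to 7.69 in sham and from 7.64 to 7.88 in M-MI, with 5 M-MI arrays above all sham arrays and a shift of 0.20 (SE 0.08). In L-MI both lay higher than in M-MI, Lox by 0.46 (adjusted p = 0.00908) and Eln by 0.28 (adjusted p = 0.0369). Ogn, a small leucine-rich proteoglycan, shifted by 0.14. The list member below 0 at the unadjusted p was Fbln5 (-0.15), an organiser of elastic fibres, which is named here because of its value.

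The fibrillar collagens most tied to scar formation had shifts near 0. Col1a1 had a shift of 0.07 with an interval from -0.29 to 0.43, and Col3a1 one of -0.03 with an interval from -0.21 to 0.14. Postn, periostin of activated fibroblasts, was at 0.06 (interval -0.39 to 0.52), whereas L-MI exceeded M-MI by 2.94 (adjusted p = 2.77e-07). Timp1, the tissue inhibitor of metalloproteinases, was at 0.12 (interval -0.16 to 0.39). These intervals allow shifts in either direction, and those of Col1a1, Postn and Timp1 reach past 1.3-fold higher. That of Postn lies below the difference between L-MI and M-MI.

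Among 12 matricellular genes 10 lay above 0 and 2 below, none at the unadjusted p in either direction, with a median of 0.063 (0.029 without sham 4 and sham 6). Ccn2, connective tissue growth factor, had a shift of 0.23 (SE 0.23), with sham values of 8.23, 8.33 and 9.28 and M-MI values of 8.21, 8.63 and 9.34. Spp1, osteopontin, was at 0.26 (SE 0.30) and Thbs4, thrombospondin 4, at -0.05. Both Ccn2 and Spp1 were higher in L-MI than in M-MI, by 1.40 (adjusted p = 0.000522) and 1.76 (adjusted p = 0.000883). The 21 matrix proteases and inhibitors divided into 12 above and 9 below 0 with a median of 0.0031, Mmp14, a membrane-bound collagenase, being at 0.17 (SE 0.10). The 24 genes of TGF-beta and BMP signalling divided evenly, 12 and 12, with Tgfb2 at 0.18 and Tgfb1 at 0.01.

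The natriuretic peptides, the usual RNA markers of wall stress, were not separated from sham. Nppa, atrial natriuretic peptide, lay at 10.71, 11.23 and 11.78 in sham and at 10.60, 11.03 and 12.50 in M-MI. The groups overlapped almost completely, with a shift of 0.07 and an interval from -0.49 to 0.64. L-MI exceeded M-MI by 1.82 (adjusted p = 0.00023). Nppb, the B-type peptide, had a shift of -0.15. Over the 16 genes of the fetal programme 8 lay above and 8 below 0, with a median of -0.00039, and the 11 genes of the renin-angiotensin and endothelin system divided 6 to 5, with Edn1, endothelin 1, at 0.03. At the unadjusted p, 1 of the 16 fetal programme genes was higher (6.25%, against 6.73% of all named clusters at that p). That gene was Corin, the protease that cleaves the natriuretic peptide precursors. It ran from 10.31 to 10.96 (median 10.60) in sham and from 10.72 to 11.07 (median 10.79) in M-MI, a shift of 0.26 (SE 0.10, adjusted p = 0.689).

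**Figure D3:**
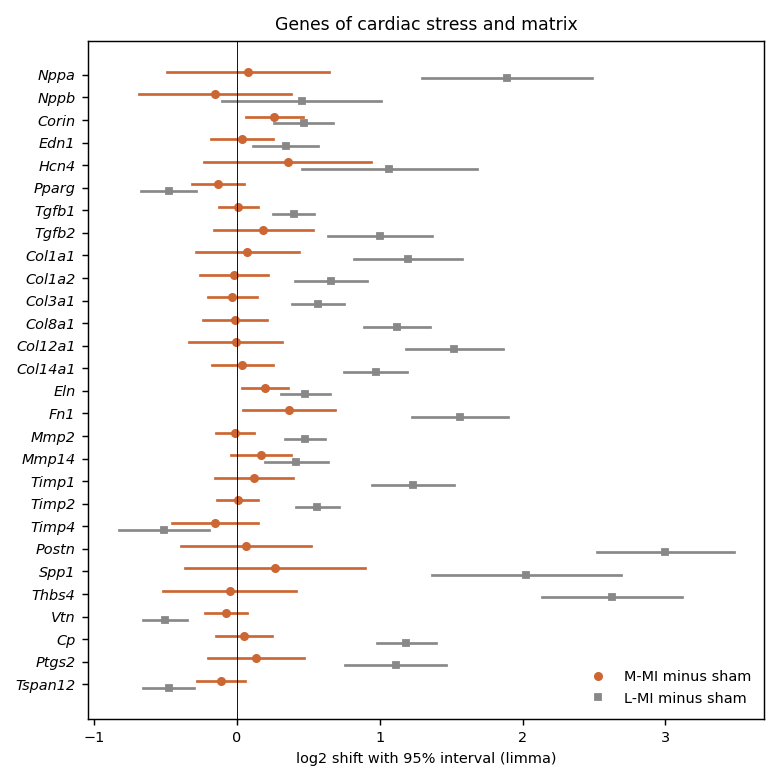
Log2 shifts against sham with 95% confidence intervals from limma (horizontal axis) for genes of cardiac stress and matrix, M-MI beside L-MI, both against the same 6 sham arrays. The M-MI intervals of Postn (-0.39 to 0.52) and Nppa (-0.49 to 0.64) include 0, while those of Fn1 and Corin lie above it before adjustment.

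Atrial tissue in the dissection was followed with 10 atrial markers, of which 5 lay above and 5 below 0. The sham arrays were uneven in this list, sham 1 having the highest mean at 0.28. Myl7, the atrial myosin light chain, spread from 7.30 to 10.63 (median 8.47) in sham and from 6.98 to 9.37 (median 7.74) in M-MI, a shift of -0.93 whose SE was 0.66. The part of atrial tissue in the natriuretic peptide values was not tested.

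Genes of excitation and contraction showed small shifts. Of 23 adrenergic and cyclic AMP genes 15 lay above 0 (median 0.035), and Adrb1, the main cardiac beta receptor, ran from 7.53 to 7.77 in sham and from 7.76 to 7.94 in M-MI, a shift of 0.12 (SE 0.05). Of 21 calcium handling genes 16 lay below 0 (median -0.027), and Stim1, a calcium sensor of the sarcoplasmic reticulum, ran from 8.19 to 8.48 in sham and from 8.01 to 8.35 in M-MI, a shift of -0.17 (SE 0.06). Ryr2, the calcium release channel, was at 0.03. The 24 ion channel genes divided 12 to 12. Hcn4, the pacemaker channel re-expressed in failing ventricle, lay at 8.17, 8.83 and 9.51 in sham and 8.62, 9.02 and 10.19 in M-MI, a shift of 0.35 (SE 0.28) with overlapping groups. Scn4b, a beta subunit of the sodium channel, lay at 9.60 to 10.09 in sham and 9.44 to 9.77 in M-MI, a shift of -0.29 (SE 0.16), and was lower again in L-MI by -0.96 (adjusted p = 0.000795). Of 21 sarcomere and Z-disc genes 9 lay above and 12 below 0, with Tnnt2, cardiac troponin T, at -0.02.

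Gja1, the connexin of ventricular gap junctions, lay higher in M-MI than in sham and lower in L-MI than in M-MI. It lay at 11.80, 11.97 and 12.14 in sham and at 12.07, 12.12 and 12.19 in M-MI, a shift of 0.15 (SE 0.06, adjusted p = 0.691), with 2 M-MI arrays above all sham arrays. L-MI was below M-MI by -0.29 (adjusted p = 0.00692). The 10 genes of the intercalated disc divided 5 to 5, and 7 above to 3 below without sham 4 and sham 6.

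Energy metabolism genes lay mostly below sham, by small amounts. Of 45 genes of fatty acid uptake and oxidation 36 lay below 0, with 1 higher and 0 lower at the unadjusted p and a median of -0.039. The list mean was lowest in M-MI 5 (-0.20) and highest in M-MI 3 (0.11), so the M-MI arrays spanned both sides of the sham arrays. The member higher at the unadjusted p was Ucp2, a carrier of the mitochondrial inner membrane, which ran from 11.30 to 11.94 (median 11.67) in sham and from 11.78 to 12.13 (median 11.92) in M-MI, a shift of 0.29 (SE 0.11). Eci2 (-0.14) and Slc25a20 (-0.11), which serve fatty acid oxidation inside mitochondria, were the lower members with the smallest p.

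Of 32 genes of glucose use 24 lay below 0 (median -0.022), 3 of them at the unadjusted p. Pdp1, the phosphatase that activates pyruvate dehydrogenase, was below every sham array in 5 of the M-MI arrays, at 9.12 to 9.30 in sham and 8.75 to 9.36 in M-MI, a shift of -0.23 (SE 0.10). Pfkfb1, which sets the fructose bisphosphate signal of glycolysis, was at -0.29 (SE 0.11) and Pgk1, a glycolytic kinase, at -0.14. In the citrate cycle 15 of 18 genes lay below 0 (median -0.030), led by Sdhd, a subunit of succinate dehydrogenase. Its sham values of 11.66 to 11.74 and M-MI values of 11.56 to 11.66 did not overlap, although the shift was only -0.09 (SE 0.04). Dld, shared by the mitochondrial dehydrogenase complexes, was also at -0.09.

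Of 40 respiratory chain and ATP synthase genes 29 lay below 0 (median -0.020), and Ndufa5 of complex I had a shift of -0.13 (SE 0.05). Branched-chain amino acid breakdown had 13 of 18 below 0, with Hibch of valine breakdown at -0.16, and the PPAR, PGC-1 and ERR regulators had 12 of 15 below 0, with Esrrb, an estrogen-related receptor, at -0.15. Without sham 4 and sham 6 the counts below 0 became 33 for fatty acids, 21 for glucose, 14 for the citrate cycle, 36 for the respiratory chain, 9 for branched-chain amino acids and 9 for the PPAR, PGC-1 and ERR regulators, whose median moved from -0.036 to -0.0077. The median signal of these lists ran from 9.57 to 12.5, in the range where 66.8% of all named clusters lay below 0. Stress response genes divided 11 above to 13 below, Fgf21, a hormone of stressed mitochondria, being at 0.16.

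**Figure D4:**
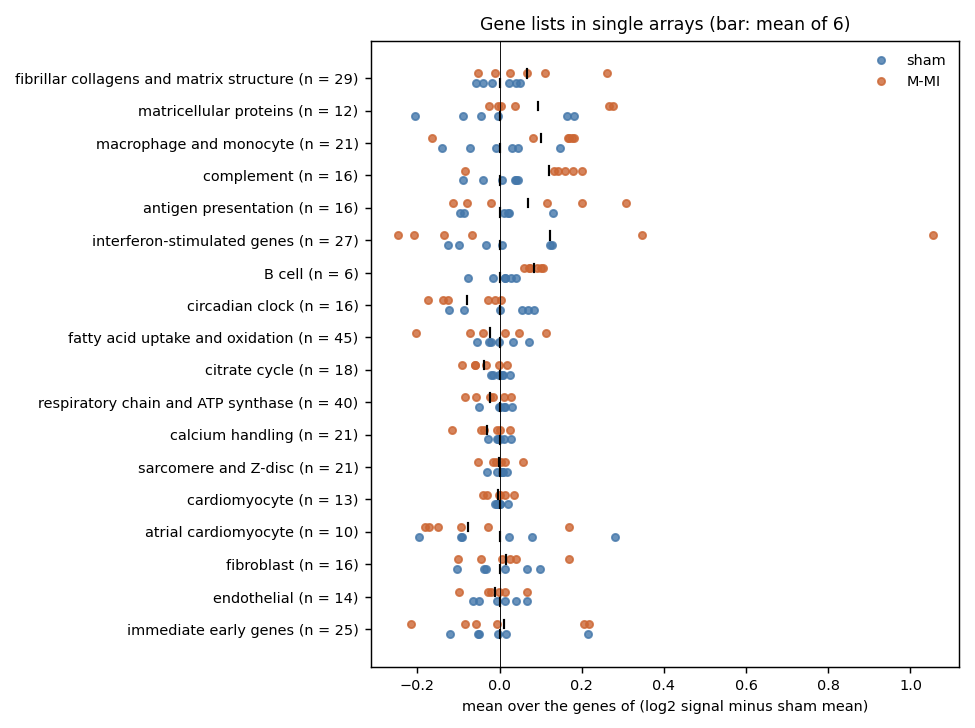
Mean over the genes of each list of log2 signal minus the sham mean (horizontal axis), with 1 point per sham or M-MI array and a bar at the mean of 6. M-MI 3 stands out in the interferon-stimulated list at 1.05, and M-MI 1 lies lowest of the M-MI arrays in the complement and macrophage lists.

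Interferon-stimulated genes, the antiviral genes switched on by interferons through IRF and STAT factors, differed between M-MI rats more than any other list, by the range of the list means. Of 27 measured, 23 lay above 0 with a median of 0.098, but none reached the unadjusted p in either direction. The list mean was 1.05 in M-MI 3 and 0.35 in M-MI 6, against -0.25 to -0.07 in the other M-MI arrays and -0.13 to 0.13 in sham. Without M-MI 3 the median was -0.063. The S-MI arrays spanned -0.11 to 0.28 and the L-MI arrays -0.25 to 0.18.

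Irf7, the factor that amplifies the interferon response, lay at 7.72, 8.12 and 8.19 in sham and at 7.75, 7.96 and 9.96 in M-MI. The M-MI median was below that of sham, and M-MI 3 (9.96) and M-MI 6 (9.22) set the shift of 0.41 (SE 0.27, adjusted p = 0.747). Isg15, a ubiquitin-like modifier, had sham values of 6.67 to 6.90 and M-MI values of 6.73 to 8.31, a shift of 0.33 (SE 0.18). Named for their values in M-MI 3 alone, Mx1, an antiviral GTPase, read 9.46 against 6.75 to 7.35 in sham, Oas1b, an oligoadenylate synthetase, 8.52 against 6.06 to 6.45, Ifi44l 9.01 against 7.48 to 7.90, and the RNA sensor Ifih1 8.67 against 7.66 to 7.996. In M-MI 6 the value of Oas1b was 6.69, also above sham.

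Irf7, Oas1b, Ifi44l and Ifih1 were all high in M-MI 3, and their promoters are shown. The core of the interferon-stimulated response element, GAAA and again GAAA with any 2 bases between them, was searched on both strands in the 250 bases before the gene start in the RefSeq table for GRCr8. It was present in 1140 of 33469 promoters (3.41%), and in 12 of the 20 list members with 1 promoter entry. The promoters of Irf7 (chr1:205800024-205800273, minus strand), Oas1b (chr12:41395853-41396102, minus strand), Ifi44l (chr2:243328473-243328722, plus strand) and Ifih1 (chr3:67683969-67684218, minus strand) are written 5′ to 3′ along the gene, with matches in capitals.
Irf7: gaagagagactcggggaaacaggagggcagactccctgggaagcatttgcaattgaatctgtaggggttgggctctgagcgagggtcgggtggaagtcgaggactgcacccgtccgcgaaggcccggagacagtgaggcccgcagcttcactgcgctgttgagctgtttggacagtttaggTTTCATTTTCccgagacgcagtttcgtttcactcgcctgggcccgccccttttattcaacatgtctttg
Oas1b: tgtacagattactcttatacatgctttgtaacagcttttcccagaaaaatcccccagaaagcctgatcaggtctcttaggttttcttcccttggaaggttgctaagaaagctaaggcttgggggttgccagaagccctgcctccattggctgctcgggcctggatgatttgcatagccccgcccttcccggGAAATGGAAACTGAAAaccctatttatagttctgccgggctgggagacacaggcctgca
Ifi44l: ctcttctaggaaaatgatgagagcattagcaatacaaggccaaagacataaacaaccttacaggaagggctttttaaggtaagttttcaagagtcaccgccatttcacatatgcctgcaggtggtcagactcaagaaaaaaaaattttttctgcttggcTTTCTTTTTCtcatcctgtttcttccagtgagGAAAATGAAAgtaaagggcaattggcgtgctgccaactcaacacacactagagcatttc
Ifih1: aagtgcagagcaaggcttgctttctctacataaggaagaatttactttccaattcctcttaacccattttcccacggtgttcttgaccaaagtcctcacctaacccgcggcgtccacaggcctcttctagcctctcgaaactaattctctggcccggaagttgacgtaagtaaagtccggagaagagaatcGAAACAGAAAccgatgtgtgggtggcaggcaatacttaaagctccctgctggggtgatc
The match began 69 bases before the start in Irf7, read from the opposite strand, and 59 in Ifih1. Oas1b held 2 overlapping matches, at 59 and 53 bases, and Ifi44l held 2 at 91 and 59 bases, the farther one read from the opposite strand. A match describes the letters and does not show binding.

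**Figure D5:**
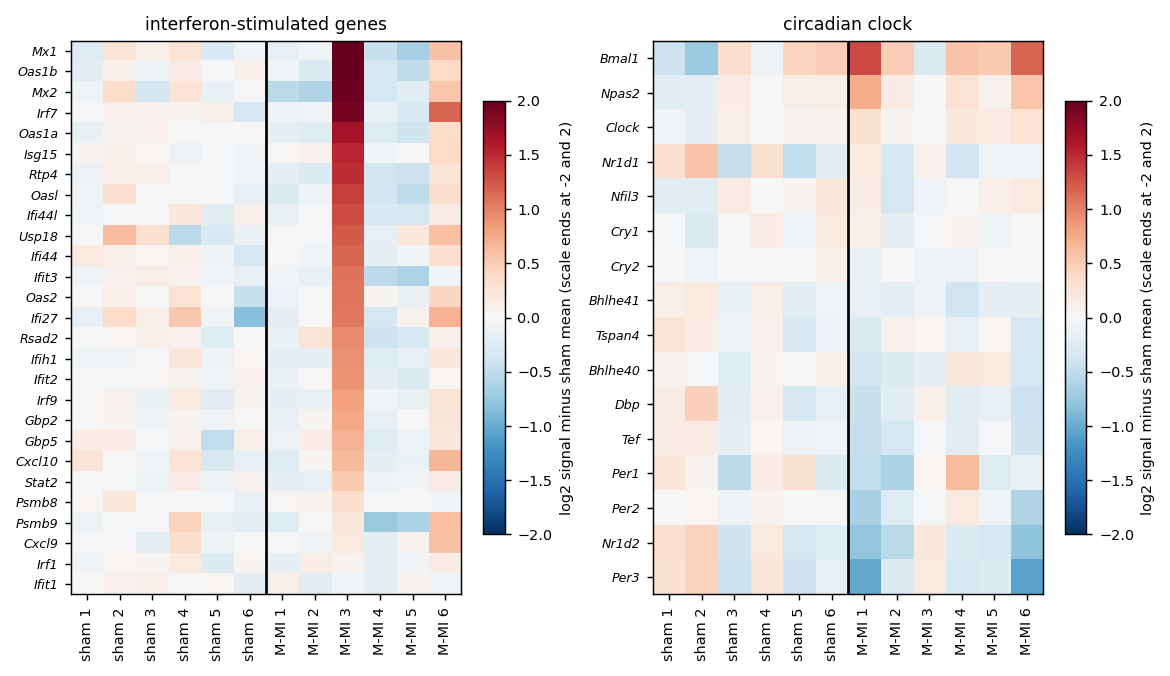
Heat maps of log2 signal minus the sham mean (colour, from -2 to 2) for the interferon-stimulated and circadian clock lists, with genes in rows and the sham and M-MI arrays in columns. Most interferon-stimulated genes are high in M-MI 3, where the list mean was 1.05, and less so in M-MI 6 at 0.35.

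The complement list lay above sham in 5 of the 6 M-MI rats. Of 16 complement genes 15 lay above 0 (median 0.12), with 1 higher at the unadjusted p. M-MI 1 had a list mean of -0.084, whereas the other M-MI arrays had 0.13 to 0.20, above all sham arrays (-0.089 to 0.046). All S-MI arrays, at 0.080 to 0.31, also lay above all sham arrays, and the median S-MI minus sham shift was 0.12. C1r, a protease of the first complement component, ran from 10.29 to 10.44 in sham and from 10.41 to 10.57 in M-MI, a shift of 0.10 (SE 0.05). C6, of the membrane attack complex, ran from 6.16 to 6.71 in sham and from 6.35 to 7.60 in M-MI, a shift of 0.36 (SE 0.18).

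Of 16 antigen presentation genes 12 lay above 0 (median 0.12), 2 at the unadjusted p. The list mean was 0.31 in M-MI 6, 0.20 in M-MI 3 and 0.12 in M-MI 2, but -0.022 in M-MI 1, -0.078 in M-MI 4 and -0.11 in M-MI 5, with sham at -0.096 to 0.13, so the groups overlapped. RT1-Ba, a class II chain, lay at 8.56, 8.73 and 8.91 in sham and at 8.75, 8.94 and 9.11 in M-MI, a shift of 0.21 (SE 0.08) with 4 M-MI arrays above all sham arrays. Ciita, the transactivator of class II genes, had a shift of 0.15 (SE 0.06). Chemokines and cytokines divided 29 above to 18 below among 47 measured, with Il1rn, the interleukin-1 receptor antagonist, at 0.21 (SE 0.07). Acute phase and iron genes divided 15 to 6 (12 to 9 without sham 4 and sham 6), with Ptx3, a pentraxin, at 0.19 and Hp, haptoglobin, at 0.15.

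Circadian clock genes had the lowest median of the 48 lists, with wide spread within groups. Of 16 measured, 4 lay above 0 and 12 below, with 1 in each direction at the unadjusted p and a median of -0.12. Bmal1, the activator of the positive limb, lay at 6.72, 7.58 and 7.96 in sham and at 7.18, 8.01 and 8.79 in M-MI, a shift of 0.63 (SE 0.32, adjusted p = 0.707) with 4 M-MI arrays above all sham arrays. Its partner Clock was at 0.17 and Npas2 at 0.30 (SE 0.19). Below 0 were Per3 at -0.46 (SE 0.28), Nr1d2 at -0.42 (SE 0.23), Tef at -0.25 and Bhlhe41 at -0.20. Npas2, Per3 and Nr1d2 are named after their values were seen, and no pattern is drawn from them. The hour at which hearts were taken is not given in the sources used here, and its part in these values was not tested. Immediate early genes, which respond within minutes to handling, divided 16 above to 9 below among 25, with M-MI list means from -0.21 in M-MI 1 to 0.22 in M-MI 4.

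Of 33 cell cycle genes 23 lay below 0 (median -0.041), 3 of them at the unadjusted p, and 18 lay below 0 without sham 4 and sham 6. Nusap1, of the mitotic spindle, lay at 6.62 to 6.91 in sham and 6.19 to 6.58 in M-MI, a shift of -0.28 (SE 0.12). Hmmr, a hyaluronan receptor of dividing cells, lay at 5.32 to 5.43 in sham and 4.87 to 5.30 in M-MI, a shift of -0.23 (SE 0.10). Neither overlapped between groups, and Tyms, which makes thymidylate, was at -0.18.

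Cytosolic ribosomal protein genes lay below 0 in 26 of 31 cases (27 without sham 4 and sham 6), with a median of -0.034 and 3 lower at the unadjusted p. Rpl4 did not overlap, at 11.20 to 11.46 in sham and 11.08 to 11.19 in M-MI, a shift of -0.12 (SE 0.04), and Rpl11 was at -0.11. Among 19 neuropeptides and nerve growth factors 12 lay above 0 (10 without sham 4 and sham 6), with Pdyn, prodynorphin, at 0.20. Nts, the neurotensin precursor, lay at 3.64, 4.12 and 4.19 in sham and 3.60, 3.69 and 3.87 in M-MI, a shift of -0.35 (SE 0.08, adjusted p = 0.689) at a dim signal. Sham 1 at 3.64 was the only sham array within the M-MI range, and without it Nts was the 1 gene called in the whole comparison. The 35 antioxidant genes and the 25 protein degradation genes had 0 at the unadjusted p in either direction and divided near evenly, the antioxidant list 16 to 19.

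Cell type markers give the makeup of the sampled wall only in part, since in bulk tissue fewer cells of a type and less RNA per cell cannot be told apart. Of 21 macrophage and monocyte markers 19 lay above 0, with a median of 0.082 and 1 at the unadjusted p. The list mean was -0.16 in M-MI 1 and 0.08 to 0.18 in the other M-MI arrays, overlapping sham (-0.14 to 0.15). For S-MI the list mean was 0.086 to 0.38, and the median S-MI minus sham shift was 0.16, larger than that of M-MI. C1qb, a complement chain made by resident macrophages, lay at 8.84 to 8.94 in sham and at 8.50 to 9.33 in M-MI, with 5 M-MI arrays above and M-MI 1 below all sham arrays, a shift of 0.18 (SE 0.12). Cd4, a member of the T cell list and not of this one, is also carried by rat macrophages. It lay at 9.08 to 9.24 in sham and 9.14 to 9.61 in M-MI, a shift of 0.23 (SE 0.10). L-MI arrays lay higher than M-MI arrays by 0.74 for C1qb (adjusted p = 0.000643) and 0.53 for Cd4 (adjusted p = 0.00147). The same M-MI rat was thus lowest in the macrophage and complement lists, and the part of macrophage content in the complement values was not tested.

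Among 6 B cell markers 4 lay above 0 (median 0.13), and the list mean did not overlap between M-MI (0.058 to 0.10) and sham (-0.076 to 0.041). With 48 lists looked at, this separation was not tested. The list mean lay on both sides of 0 in the S-MI arrays (-0.12 to 0.11) and in the L-MI arrays (-0.13 to 0.068). Blk, a kinase of the B cell receptor, lay at 5.85 to 6.04 in sham and 5.98 to 6.31 in M-MI, a shift of 0.18 (SE 0.06). T cell markers divided 9 above to 6 below and natural killer cell markers 8 to 3, and in each list the mean of 3 M-MI arrays lay below 0. The 1 T cell marker at the unadjusted p was Cd4, given above. Fibroblast markers divided 8 to 8, and 10 of 14 endothelial markers lay below 0, none of either list at the unadjusted p. Without sham 4 and sham 6 the endothelial direction turned, with 6 below 0 and a median of 0.012 in place of -0.017. Smooth muscle and pericyte markers lay above 0 in 11 of 15 cases, and 14 without sham 4 and sham 6. Myocd, a coactivator of smooth and cardiac muscle genes, was at 0.14 (SE 0.05), and Acta2, smooth muscle actin, at 0.12 (SE 0.06). Nerve and Schwann cell markers divided 9 to 6 (7 to 8 without sham 4 and sham 6), with 2 lower at the unadjusted p, Cdh19 and Gfra3 as given above. Mesothelial and epicardial markers divided 5 to 8, with Aldh1a1, a retinaldehyde dehydrogenase, at -0.15 (SE 0.06) against sham and higher in L-MI than in M-MI by 0.78 (adjusted p = 3.46e-07).

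M-MI was also set against its neighbours in infarct size, without sham. Between M-MI and S-MI 0 clusters were called (0%), with 3646 (12.5%) at the unadjusted p. Mc4r, a melanocortin receptor, gave the smallest p there among named genes and is named for it. It lay at 7.001 to 7.36 (median 7.19) in sham and 6.64 to 7.02 (median 6.92) in M-MI, a shift of -0.31 (SE 0.10), and the M-MI minus S-MI difference was -0.52 (adjusted p = 0.188). Between L-MI and M-MI 784 clusters were called (2.68%), 581 higher in L-MI (1.99%) and 203 lower (0.695%). Mc4r was among them at 0.62 (adjusted p = 0.000341). Its differences from sham and from L-MI use the same M-MI arrays on which it was chosen, so neither is separate support.

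M-MI was also described over the genes called between L-MI and S-MI, a contrast of other arrays in the same fit, to whose estimate of the spread the M-MI and sham arrays contributed. For 459 genes higher in L-MI, the M-MI minus sham median was 0.036, and 282 (61.4%) lay above 0, against 48.7% of all clusters. The mean over these genes was 0.20 in M-MI 5, 0.095 in M-MI 4 and 0.067 in M-MI 2, but -0.011 in M-MI 3, -0.022 in M-MI 6 and -0.088 in M-MI 1. The sham arrays spanned -0.024 to 0.034. For 266 genes lower in L-MI, the median was -0.053 and 188 lay below 0. M-MI 5 (-0.20), M-MI 2 (-0.091) and M-MI 4 (-0.070) were the lowest here and M-MI 1 (0.066) the highest, with sham at -0.055 to 0.055. The M-MI rats thus lay on both sides of sham, and M-MI 5 lay farthest toward L-MI in both sets.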

How the data were processed

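Total RNA of the LV was hybridised to Affymetrix Rat Gene 1.0 ST arrays, and the authors normalised the arrays by robust multiarray average in Partek Genomics Suite. The deposited series table holds log2 values for 29214 transcript clusters per array, the base being taken as 2 from the method and the range of the values. No scanner signals or detection calls were used here, so the number of arrays limits the precision. The values were used as deposited, and the 11 blood cell arrays were not used. Groups came from the sample labels, with 1 array per rat.

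Symbols came from the platform annotation, updated through RefSeq. Of the clusters, 15310 had the symbol of 1 gene, 323 several and 13581 none, and 2 symbols (Col18a1, Thbs4) were taken from the names in a supplementary table of the study. Several clusters may share a symbol, since 14506 different symbols were named.

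A linear model with group means was fitted to the 23 LV arrays with limma 3.58.1 in R 4.3.3, with M-MI minus sham as the main contrast, moderated by empirical Bayes and adjusted by Benjamini-Hochberg over all clusters. Sharing 1 estimate of the spread, all SE, intervals and p-values except the exact permutation p come from this fit. A list mean is the mean over its genes of log2 signal minus the sham mean. The code was tested on simulated data. Figures were drawn with matplotlib 3.10.9 in Python 3.11.15. The gene groups and lists were chosen with earlier results of these data known.

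Genes were named by a rule: the 12 largest shifts in each direction at an unadjusted p of at most 0.05, the 8 non-overlapping genes in each direction with the smallest p, the list members with the smallest p, and the genes the study measured by RT-qPCR. Others are marked in the text. Alternatives were other normalisations, a filter on dim clusters, other thresholds, a replicate block, and leaving out arrays. Replicate numbers did not pair the rats (correlations of same-numbered deviations from -0.0804 to 0.0748).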

Additional observations from a re-analysis of the deposited data

Results flagged for a closer look

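Single arrays that stood far from the other 5 of their group, by Dixon's criterion, were found in 15 of 174 groups of values, and chance flags about 1 in 20 groups. Among genes these were Fgf7 in sham 5 (7.174), H19 in sham 6 (6.465), Slpi in sham 6 (7.58), Vom2r56 in sham 6 (5.635), Or7g23 in sham 4 (4.826), Foxi2 in sham 4 (6.018), Or6c35f in M-MI 5 (5.219) and Slc10a4 in M-MI 6 (6.326). Sham 6 was thus the extreme array of H19, Slpi and Vom2r56, lying away from the M-MI arrays in each.

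Among list means they were branched-chain amino acid breakdown in M-MI 5 (-0.09531), antioxidant and xenobiotic enzymes in M-MI 2 (0.1129), complement in M-MI 1 (-0.08439), macrophage and monocyte markers in M-MI 1 (-0.1636), chemokines and cytokines in sham 5 (-0.07291), cytosolic ribosomal proteins in sham 6 (-0.06345) and cardiomyocyte markers in sham 5 (0.02147). M-MI 1 was the low M-MI array of both the complement list and the macrophage list, which itself holds complement genes.

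For 4 genes of the tails of the M-MI shift the difference between L-MI and M-MI itself passed the test of the limma fit. L-MI was higher by 1.198 for Fn1, 0.3796 for Slamf9 and 0.6367 for Lyz2, on the same side as the M-MI shift, and differed by -0.539 for Aqp6, on the opposite side.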

How the results depend on the processing

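All 39 shifts of single genes followed through the alternatives kept their sign. These genes were chosen for large or non-overlapping shifts in the same arrays, so the kept sign is no separate support. Of the 48 list medians 23 took both signs, most of them near 0. The largest of these was the interferon-stimulated list, at 0.098 with all arrays and -0.063 without M-MI 3. Over all clusters 71 were at least 1.3-fold higher and 183 lower. Without the 30% dimmest clusters these counts were 39 and 28, with a median named shift of -0.0137 and a neutrophil list median of -0.0231, and at 1.2-fold they were 314 and 475. Centring each array on its median gave a median shift of -0.0274. A repeated quantile normalisation gave -0.00375, with 30 lower clusters without overlap. Without sham 4 and sham 6 there were 1010 clusters at the unadjusted p and 111 at least 1.3-fold lower, a median of -0.00155, and 74 higher and 107 lower without overlap. Leaving out sham 1, M-MI 3 and M-MI 5 together, chosen after seeing the data, gave 136 higher and 298 lower by 1.3-fold, and 129 and 265 without overlap. In that setting the shifts were 0.47 for Fgf7, 0.29 for Sphkap, 0.15 for Ifi27l2b and -0.22 for Cdh19, and with array quality weights that of Klra22 was -0.32.

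Leaving out each array in turn gave 0 to 1 clusters called, 1404 to 2506 at the unadjusted p, 72 to 122 higher and 127 to 254 lower by 1.3-fold, a median from -0.0134 to -0.00461, and 36 to 62 higher and 71 to 110 lower without overlap. The 1 cluster called was Nts, without sham 1. The neuropeptide median ran from 0.00536 (without M-MI 4) to 0.0644, and that of protein degradation from -0.00966 to 0.0178 (without M-MI 5).

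With the replicate number as a block 0 clusters were called and 2450 reached the unadjusted p, so the pairing changed no call. Of 6 arrays, 2 correlated best with their own number. With 6 arrays a group the median half-width of the 95% intervals was 0.142, and most smaller shifts could not be told from 0.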
